A study of Mus musculus with 4 samples.

Results

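The expression of 10 targets of the hypoxia-inducible factors (HIFs) that act outside glycolysis was followed in single-cell RNA sequencing of efferocytic and non-efferocytic bone marrow (BM) macrophages. The genes were Bnip3, Bnip3l, Ankrd37, Ak4, Vegfa, Ndrg1, Kdm3a, P4ha1, P4ha2 and Adm, found by symbol among the 31053 genes of the count tables, and all 10 had enough counts to be tested. BM macrophages grown with macrophage colony stimulating factor from young male C57BL/6J mice were co-cultured for 16 to 18 h with apoptotic RM1 cells, a mouse prostate cancer line killed by ultraviolet light and labelled with the dye CFSE. Efferocytic BM macrophages, sorted as F4/80+CFSE+, had taken up labelled apoptotic cells, and non-efferocytic BM macrophages were sorted as F4/80+ only. There were 2 experiments, each with 1 library of either group, made with the 10x 3′ kit v3.1, so that each group had 2 libraries. No genetic change is given for either group, and the sources used here do not make clear whether the non-efferocytic BM macrophages had been kept with apoptotic cells or alone.

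HIF-1α (encoded by Hif1a) and HIF-2α (Epas1) each pair with Arnt to form a transcription factor, and oxygen sets how much of the alpha partner a cell keeps. While oxygen is plentiful, prolyl hydroxylases of the Egln family mark the alpha subunit for destruction through the von Hippel-Lindau protein, and when that reaction slows the dimer accumulates and binds hypoxia response elements with the core letters ACGTG or GCGTG. Beside the glycolytic enzymes, HIFs induce genes for mitochondrial turnover (Bnip3, Bnip3l), nucleotide balance (Ak4), collagen maturation (P4ha1, P4ha2), chromatin (Kdm3a) and vascular signals (Vegfa, Adm), and macrophages use HIF-1α in inflammation as well as in low oxygen.

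The promoters of the members show where these core letters lie, and those of the 2 genes with the largest rise, of P4ha2, of Bnip3 and of Vegfa, the gene that fell, are shown for that reason. The RefSeq promoter table (build GRCm38.p6) held windows of 8 of the 10 genes, each reaching from 250 bases before to 50 bases after a transcription start, and for genes with several windows the one nearest the GENCODE vM21 gene start was used. Printed below are the 250 bases before the start, 5′ to 3′ on the gene's strand, with every ACGTG or GCGTG, read on either strand (CACGT or CACGC), in capitals.
Ankrd37, chr8:45999851-46000100, minus strand: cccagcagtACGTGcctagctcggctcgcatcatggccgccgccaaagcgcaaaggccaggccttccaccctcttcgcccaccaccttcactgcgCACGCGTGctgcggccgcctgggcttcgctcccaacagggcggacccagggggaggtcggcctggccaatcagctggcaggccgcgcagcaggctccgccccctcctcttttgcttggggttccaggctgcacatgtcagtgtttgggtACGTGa
Ak4, chr4:101419039-101419288, plus strand: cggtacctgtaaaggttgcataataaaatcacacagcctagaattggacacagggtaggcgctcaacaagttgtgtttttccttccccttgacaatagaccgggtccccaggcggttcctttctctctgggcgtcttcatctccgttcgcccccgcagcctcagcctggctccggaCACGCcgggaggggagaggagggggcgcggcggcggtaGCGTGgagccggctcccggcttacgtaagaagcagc
P4ha2, chr11:54100674-54100923, plus strand: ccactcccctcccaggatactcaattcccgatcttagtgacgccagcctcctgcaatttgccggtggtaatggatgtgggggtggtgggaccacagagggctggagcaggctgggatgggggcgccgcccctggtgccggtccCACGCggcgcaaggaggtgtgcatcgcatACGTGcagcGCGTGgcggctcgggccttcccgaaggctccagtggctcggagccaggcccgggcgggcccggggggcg
Bnip3, chr7:138909507-138909756, minus strand: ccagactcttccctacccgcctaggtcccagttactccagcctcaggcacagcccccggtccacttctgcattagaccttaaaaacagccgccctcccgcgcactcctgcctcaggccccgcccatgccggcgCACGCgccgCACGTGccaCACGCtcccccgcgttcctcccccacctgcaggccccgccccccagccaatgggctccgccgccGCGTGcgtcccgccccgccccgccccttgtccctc
Vegfa, chr17:46032378-46032627, minus strand: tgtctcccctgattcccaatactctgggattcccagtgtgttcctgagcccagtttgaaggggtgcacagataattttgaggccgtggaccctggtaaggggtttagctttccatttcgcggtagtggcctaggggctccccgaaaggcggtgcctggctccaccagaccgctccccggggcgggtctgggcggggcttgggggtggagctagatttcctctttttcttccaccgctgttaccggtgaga

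Over the full windows, matches were found in 7 of the 8 members with a window. Bnip3 had 5 matches, of which CACGT and ACGTG at -108 and -107 from the start are the same site read on both strands. Ankrd37 and P4ha2 had 4 matches each, P4ha1 had 3, Ak4 and Adm had 2 each and Kdm3a had 1. Those of Ankrd37 at -155 and -152 overlap. The match of Ankrd37 nearest the RefSeq start used lies at -6, and that of P4ha1 at -16. For Ankrd37 and P4ha2 the start used lies 5857 and 829 bases from the GENCODE start. The window of Vegfa held none of these letters. Of all 32851 windows in the table, 43.8% held at least 1 match, 20.6% at least 2, 8.93% at least 3 and 3.86% at least 4, with 19.6% holding ACGTG and 32.4% GCGTG. A match describes letters in a window and is no evidence of binding. A window without a match does not show that a gene lacks such elements elsewhere. Whether the number of matches goes with the direction of change was not tested.

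In GENCODE vM21 (build GRCm38), Bnip3 spans chr7:138890836-138909519, Bnip3l chr14:66985239-67008877, Ankrd37 chr8:45996902-46005707, Ak4 chr4:101419277-101466995, Vegfa chr17:46016993-46032369, Ndrg1 chr15:66929318-66969640, Kdm3a chr6:71588972-71632990, P4ha1 chr10:59323296-59373304, P4ha2 chr11:54100095-54131665 and Adm chr7:110627661-110629820, and each is annotated as protein-coding. None overlaps another gene on its own strand. Ankrd37 overlaps Ufsp2 (log2 fold change 0.37) and Lrp2bp on the opposite strand, and Bnip3, Ndrg1 and Adm overlap unnamed gene models there. Whether the counting used strand is not given in the sources used here.

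A barcode was taken as a cell when it held 200 genes or more, 1000 or more UMIs (unique molecular identifiers, each counting 1 captured transcript) and no more than 10% of UMIs from mitochondrial genes. Experiment 1 gave 8280 such non-efferocytic barcodes against 6695 efferocytic ones, and Experiment 2 gave 13411 and 8408. The libraries held between 117155896 and 178218821 UMIs in all, and the median cell held 11146 and 9600 UMIs in the non-efferocytic and 17171 and 17476 in the efferocytic libraries. The macrophage marker Adgre1, which encodes the F4/80 used in the sort, was detected in 83.6% to 93.2% of the cells. Summed markers of the neutrophil lineage (10 of 10 above 0 in every library) lay at 3062 and 3355 CPM (counts per 1000000 UMIs of the cells) in the non-efferocytic and 968 and 725 CPM in the efferocytic libraries, and those of fibroblasts (8 of 8) at 146 and 122 against 46.7 and 53.0 CPM. Epithelial genes that RM1 cells could carry summed to 1.02 and 0.160 CPM in Experiment 1, where Krt8 was at 0 in both libraries, and to 11.2 and 9.08 CPM in Experiment 2. The study's list of resources describes RM1 as fibroblast-like. Low epithelial genes thus do not show that RM1 RNA is absent, and UMIs of the fibroblast markers could include it. RM1 is a mouse line, and its RNA in efferocytic cells was not told apart from macrophage RNA. The libraries of Experiment 2 shared 118 cell barcodes, 1.40% of the smaller library, where other pairs shared 14 to 23, and the non-efferocytic library of Experiment 2 held 36048 barcodes just under the limit of UMIs (from 500) against 1048 to 2046 in the others.

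The cells' UMIs were added up within each library, and the sums were compared with edgeR's quasi-likelihood test with the experiment as a block, adjusted over 13869 genes. Of the 10 members, 7 were higher in efferocytic BM macrophages (Ak4, Ankrd37, P4ha2, P4ha1, Bnip3, Bnip3l and Ndrg1), 1 was lower (Vegfa) and 2 (Adm and Kdm3a) did not pass the threshold of 0.05. Of all genes tested, 19.9% were called higher and 19.0% lower. The median log2 fold change of the members was 0.44, and that of all genes -0.02. These log2 fold changes use TMM, a scaling of the library sizes, while CPM and the log2 ratios within an experiment use library totals. With library totals in edgeR every member had a lower log2 fold change. It was 0.40 for Bnip3, 0.27 for Bnip3l, 0.18 for Ndrg1 (edgeR adjusted p = 0.173) and -0.23 for Kdm3a. The study's own hypoxia list, picked on these libraries, holds Ak4, so the rise of Ak4 is not independent of that choice. The cells of a library are not replicates. The study calls the 2 experiments independent and its macrophages taken from several mice, without saying which mice gave which library. The p-values rest on 4 libraries after removal of the block, and edgeR takes each gene's spread in part from all genes. They do not measure the spread of a gene between these libraries alone. The SE of Ankrd37 was 0.235 with the block and 0.509 without it. Without the block, 5 members were called higher and 0 lower, beside 9.27% and 7.74% of all genes. Bnip3l, Ndrg1 and Vegfa then no longer passed (edgeR adjusted p = 0.0749, 0.106 and 0.0719) at nearly the same log2 fold changes as with the block (0.38, 0.29 and -0.83). Leaving out the non-efferocytic library of Experiment 1 or of Experiment 2, in fits without the block, left 0 members called, while edgeR then called 2 and 0 of all genes, with 2999 and 3494 at an unadjusted p under 0.05.

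**Figure D1:**
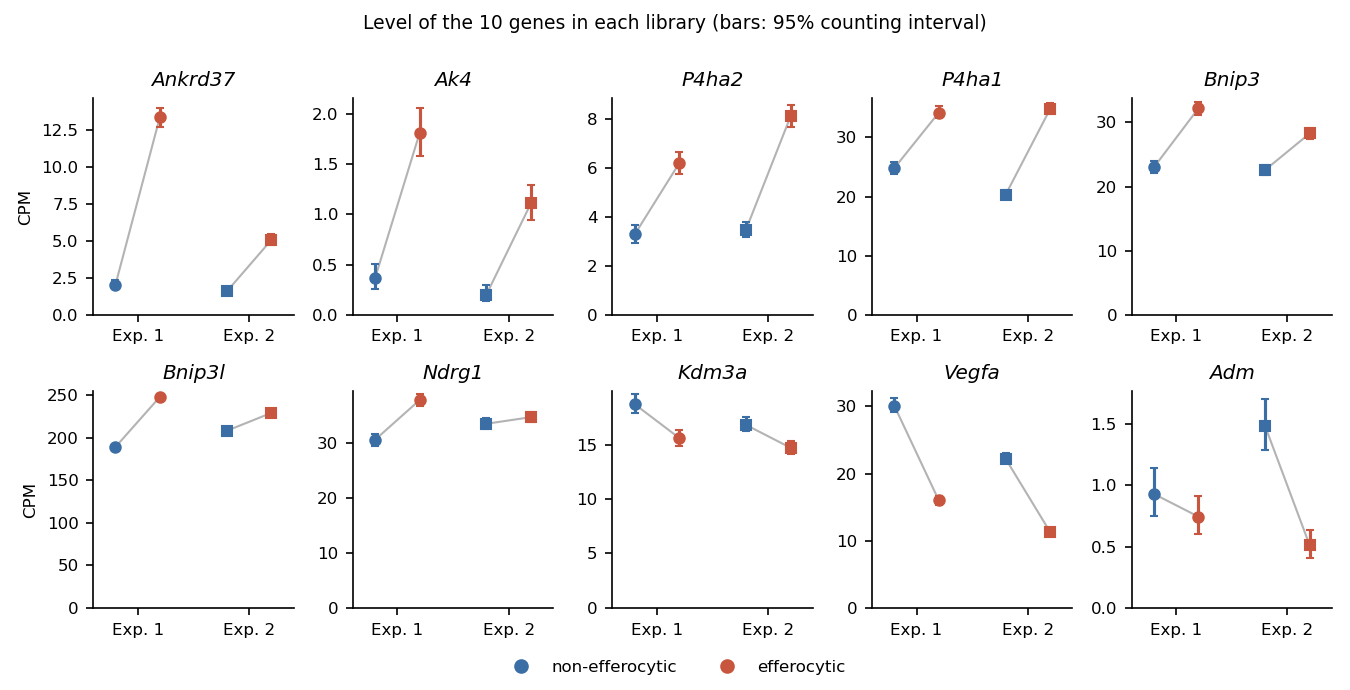
Level of each of the 10 genes in CPM (linear axis from 0) in the non-efferocytic (blue) and efferocytic (red) library of Experiment 1 (circles) and Experiment 2 (squares), with lines joining the libraries of an experiment and bars for the 95% counting interval. Ankrd37, Ak4, P4ha2, P4ha1, Bnip3, Bnip3l and Ndrg1 lie higher and Kdm3a, Vegfa and Adm lower in the efferocytic library of both experiments on this scale, while in UMIs per cell Kdm3a was higher in both (ratios 1.27 and 1.56) and Adm in Experiment 1 (1.22). Efferocytic cells held more UMIs in all, with means of 18670 against 12224 in Experiment 1 and 18461 against 10316 in Experiment 2.

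Ankrd37 and Ak4 showed the largest differences from low levels. Ankrd37 encodes a small ankyrin-repeat protein and is used as a marker of HIF activity. It lay at 2.04 CPM in the non-efferocytic and 13.4 CPM in the efferocytic library of Experiment 1, and at 1.58 and 5.06 CPM in Experiment 2. Both efferocytic libraries were above both non-efferocytic ones, and they differed from each other by more than the non-efferocytic pair did. The log2 fold change was 2.31 ± 0.235 (SE, edgeR adjusted p = 0.000347), with log2 ratios of 2.72 (95% counting interval 2.51 to 2.93) in Experiment 1 and 1.68 (1.47 to 1.91) in Experiment 2. Ak4, an adenylate kinase of the mitochondrial matrix, lay at 0.366 and 1.81 CPM in Experiment 1 and at 0.202 and 1.11 CPM in Experiment 2. These levels rest on 37, 226, 28 and 172 UMIs, and the groups did not overlap. The log2 fold change was 2.48 ± 0.216 (SE, edgeR adjusted p = 0.000184), with log2 ratios of 2.31 (1.80 to 2.85) and 2.45 (1.87 to 3.08).

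P4ha1 and P4ha2 encode the catalytic alpha subunits of the collagen prolyl 4-hydroxylases. P4ha2 lay at 3.28 and 6.19 CPM (non-efferocytic and efferocytic) in Experiment 1 and at 3.48 and 8.10 CPM in Experiment 2. P4ha1 lay at 24.8 and 34.2 CPM in Experiment 1 and at 20.3 and 34.8 CPM in Experiment 2. For both genes the non-efferocytic libraries lay below both efferocytic ones. The log2 fold change was 1.18 ± 0.121 for P4ha2 and 0.73 ± 0.0861 for P4ha1 (SE, edgeR adjusted p = 0.000362 and 0.000672).

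The mitophagy receptors Bnip3 and Bnip3l, proteins of the outer mitochondrial membrane that recruit the autophagy machinery, rose less. Bnip3 lay at 23.0 and 32.2 CPM in Experiment 1 and at 22.6 and 28.3 CPM in Experiment 2. Its log2 ratios were 0.48 and 0.32, and its log2 fold change with TMM was 0.51 ± 0.0875 (SE, edgeR adjusted p = 0.00329). Bnip3l lay at 189 and 248 CPM in Experiment 1 and at 208 and 229 CPM in Experiment 2. The groups of Bnip3l did not overlap, but its log2 ratio was 0.40 (0.37 to 0.42) in Experiment 1 and 0.14 (0.12 to 0.16) in Experiment 2. Its log2 fold change of 0.38 ± 0.108 had an edgeR adjusted p of 0.0273.

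Ndrg1, a stress-induced protein of the alpha/beta hydrolase fold, lay at 30.5 and 37.7 CPM in Experiment 1 and at 33.4 and 34.6 CPM in Experiment 2. In Experiment 2 the counting interval of the log2 ratio (0.05, -0.01 to 0.11) included 0. The log2 fold change of 0.29 ± 0.0951 was close to the threshold (edgeR adjusted p = 0.0451), and it missed it under 12 of 16 other settings, with an edgeR adjusted p of up to 0.211. Kdm3a, a demethylase of lysine 9 of histone H3, lay at 18.7 and 15.6 CPM in Experiment 1 and at 16.8 and 14.7 CPM in Experiment 2. Its log2 fold change was -0.12 ± 0.0808 (SE, edgeR adjusted p = 0.268). Scaled to UMIs per cell it turned to 0.50 (edgeR adjusted p = 0.0991), where the median of all genes was 0.60.

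Of the vascular signals, Vegfa was lower in efferocytic BM macrophages and Adm did not pass the test. Vegfa, the main growth factor of blood vessels, lay at 30.1 and 16.0 CPM in Experiment 1 and at 22.2 and 11.3 CPM in Experiment 2. Both efferocytic libraries were below both non-efferocytic ones, with a log2 fold change of -0.84 ± 0.0833 (SE, edgeR adjusted p = 0.000321). Efferocytic cells held more UMIs, and scaled to UMIs per cell the value was -0.22 (edgeR adjusted p = 0.482), a scaling under which the median of all genes moved from -0.02 to 0.60. Adm, which encodes the vasodilator peptide adrenomedullin, lay at 0.929 and 0.744 CPM in Experiment 1 and at 1.48 and 0.509 CPM in Experiment 2. These are 94, 93, 205 and 79 UMIs, and the log2 fold change was -0.85 ± 0.303 (SE, edgeR adjusted p = 0.0571). In Experiment 1 the counting interval of the log2 ratio (-0.32, -0.75 to 0.11) included 0, and with each cell thinned to 5000 UMIs the ratio there was 2.69 (1.36 to 5.63, on 30 against 13 UMIs), against 0.288 in Experiment 2.

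Most Adm UMIs of the non-efferocytic libraries lay in cells with at least 1 UMI of a fibroblast marker. Such cells made up 4.18% and 16.5% of the non-efferocytic cells and 2.36% and 2.85% of the efferocytic cells (Experiments 1 and 2), with 5.53% and 17.8% of all UMIs of the non-efferocytic libraries. A single UMI of such a marker does not tell a fibroblast from an RM1 cell or from another cell with free RNA. Which of these the cells were was not tested. They held 84 of the 94 Adm UMIs in the non-efferocytic library of Experiment 1 and 174 of the 205 in that of Experiment 2. In the efferocytic libraries they held 34 of 93 and 57 of 79. Outside these cells Adm lay at 0.105 and 0.486 CPM in Experiment 1 and at 0.273 and 0.146 CPM in Experiment 2, so that its direction differed between the experiments. With these cells and those with a UMI of the epithelial genes left out, which kept 83.1% of the cells of the non-efferocytic library of Experiment 2 and 95.4% to 97.4% of the others, the log2 fold change of Adm was 0.64 (edgeR adjusted p = 0.478). P4ha2 had 22.3% and 25.7% of its UMIs in such cells of the non-efferocytic libraries and 4.39% and 4.45% in the efferocytic ones, beside the 5.53% and 17.8% of all UMIs that these cells held in the non-efferocytic libraries. Outside them P4ha2 lay at 2.70 and 6.09 CPM in Experiment 1 and at 3.15 and 7.98 CPM in Experiment 2, and both efferocytic libraries stayed above both non-efferocytic ones. Of Vegfa, cells with at least 1% neutrophil-lineage UMIs held 3.12% and 3.38% of the non-efferocytic and 1.55% and 1.42% of the efferocytic UMIs, and its log2 fold change without them was -0.84.

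To compare the share of cells with a UMI at equal depth, each cell was thinned to 5000 UMIs, which left out 1099 and 3404 shallower non-efferocytic and 544 and 505 efferocytic cells. Ankrd37 was then detected in 0.696% and 5.56% of the cells in Experiment 1 and in 0.600% and 2.37% in Experiment 2 (Clopper-Pearson intervals of the latter 0.458% to 0.771% and 2.04% to 2.73%). Ak4 was detected in 0.153% and 1.14% and in 0.0400% and 0.620%. Both genes thus remained undetected in most efferocytic cells at this depth. Bnip3l was found in 57.9% and 69.3% and in 61.2% and 65.8% of the cells, Bnip3 in 10.7% and 13.8% and in 11.0% and 12.8%, and Vegfa in 12.0% and 7.35% and in 9.80% and 4.92%. Without thinning, Ankrd37 was detected in 1.59% and 11.7% of the cells in Experiment 1 and in 1.19% and 6.21% in Experiment 2, and Vegfa in 22.0% and 18.0% and in 15.3% and 13.7%. The barcodes of free RNA, described further on, held Ankrd37 at 10.1 to 17.4 CPM and Ak4 at 1.91 to 3.40 CPM. For Ankrd37, with 18 to 41 UMIs of free RNA in a library, this was 1.30 times the level of the efferocytic cells in Experiment 1, where the counting interval (12.5 to 23.6 CPM) included the 13.4 CPM of the cells, and 2.51 times in Experiment 2. For Ak4, with only 3 to 8 UMIs of free RNA in a library, it was 1.88 and 1.91 times, with intervals (1.47 to 6.70 and 0.437 to 6.19 CPM) that included the level of the efferocytic cells. Both genes were above the level of the non-efferocytic cells in free RNA, and the fold changes with free RNA subtracted are given further on. The intervals cover counting error only.

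The question of how far the differences sit in few cells was addressed by ordering the thinned cells of each library by their summed UMIs of 20 HIF targets in glycolysis, none of which is a member. The median cell held 10 and 11 such UMIs in the non-efferocytic and 17 and 20 in the efferocytic libraries, and the highest 10% of cells began at 17 and 17 and at 32 and 35. In the efferocytic libraries, these highest 10% held 39.6% and 37.2% of the Bnip3 UMIs, against 10.3% and 10.3% in the non-efferocytic libraries. For Ndrg1 the shares were 25.9% and 20.3% against 8.03% and 7.46%, for Vegfa 36.8% and 29.3% against 11.4% and 11.4%, and for P4ha1 23.8% and 19.7% against 13.1% and 10.2%. Of Ankrd37 they held 62.7% and 56.0% against 58.9% and 50.8%, and of Ak4 74.0% and 74.1% in the efferocytic libraries, where the non-efferocytic libraries had only 12 and 4 thinned UMIs. Kdm3a had 17.0% and 14.5% against 8.43% and 8.20%, and P4ha2 26.8% and 27.6% against 24.1% and 21.0%. Bnip3l had about the same share in both groups, 12.6% and 11.4% against 12.8% and 12.2%. The shares of Bnip3, Ndrg1, Vegfa, P4ha1, Kdm3a and P4ha2 were thus higher in both efferocytic libraries than in both non-efferocytic ones, by little for P4ha2. Those of Adm were also, at 86.7% and 40.0% against 38.5% and 20.5%, but on 30 and 10 against 13 and 44 thinned UMIs. In the highest 20% of cells P4ha2 had 36.6% and 37.2% against 39.8% and 28.7%, so its direction turned in Experiment 1. This is a description, since cells are not replicates and the order was set by genes of the same pathway.

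**Figure D2:**
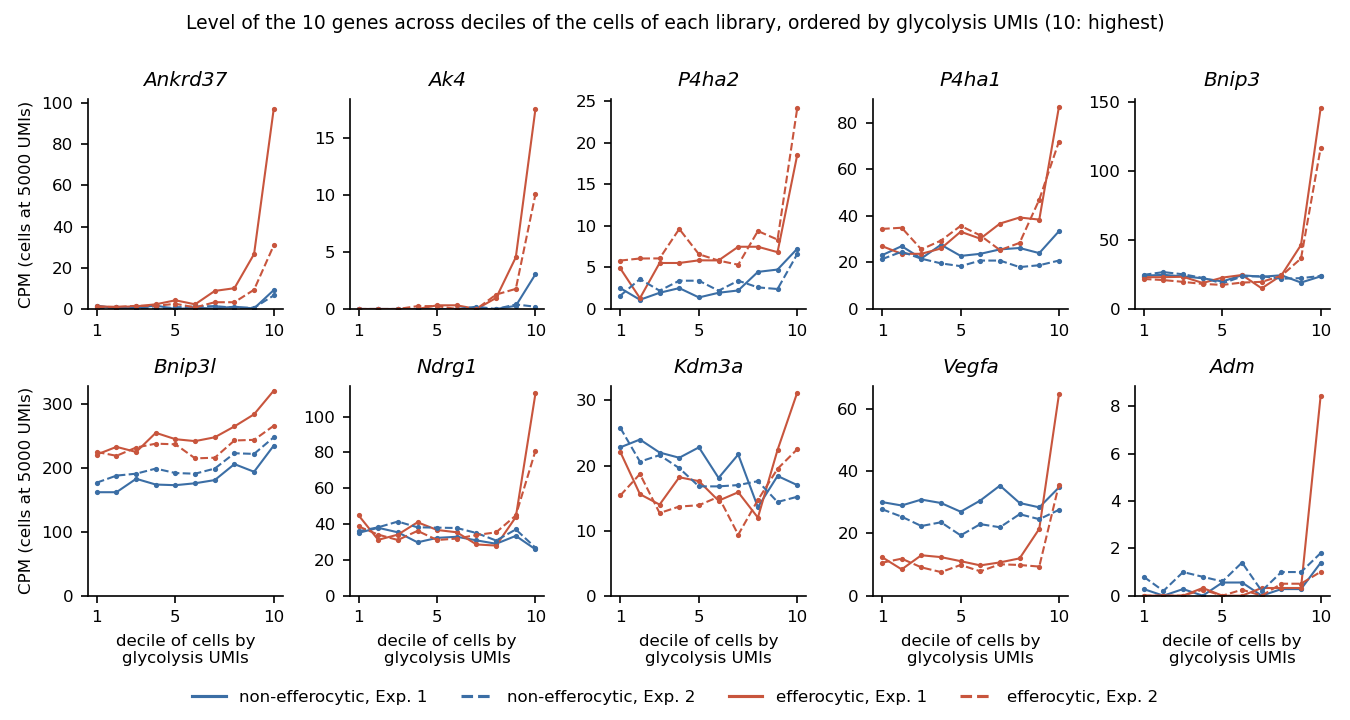
Level of the 10 genes (CPM, cells thinned to 5000 UMIs, linear axis from 0) in deciles of the cells of each library ordered by UMIs of 20 glycolysis genes, from lowest (1) to highest (10), with blue for non-efferocytic and red for efferocytic libraries and solid and dashed lines for Experiments 1 and 2. Bnip3 stays between 15.0 and 26.8 CPM over deciles 1 to 8 of every library and reaches 146 and 117 CPM in the highest decile of the efferocytic libraries, where Ndrg1 and Vegfa also turn up.

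Along the deciles of cells, Bnip3 ran between 15.0 and 24.7 CPM over the lowest 8 deciles of both efferocytic libraries, at 46.5 and 36.7 CPM in the ninth and at 146 and 117 CPM in the highest. In the non-efferocytic libraries it ran between 18.6 and 26.8 CPM in every decile. Ndrg1 reached 113 and 81.0 CPM in the highest decile of the efferocytic libraries, while the highest decile of the non-efferocytic libraries held 25.9 and 26.8 CPM. Ankrd37 went from 1.30 and 1.01 CPM in the lowest decile to 10.1 and 3.29 CPM in the eighth, 26.7 and 9.36 CPM in the ninth and 97.2 and 30.9 CPM in the highest of the efferocytic libraries. Bnip3l was higher in the highest than in the lowest decile of all 4 libraries, at 321 against 221 and 266 against 225 CPM in the efferocytic and at 235 against 162 and 248 against 177 CPM in the non-efferocytic ones.

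Without the highest 10% of cells of each library, the ratios of Bnip3 and Ndrg1 lay near 1. The ratio of Bnip3 levels, efferocytic over non-efferocytic, went from 1.60 (1.46 to 1.75) to 1.07 (0.966 to 1.19) in Experiment 1 and from 1.35 (1.25 to 1.46) to 0.944 (0.859 to 1.04) in Experiment 2. That of Ndrg1 went from 1.35 to 1.09 (1.00 to 1.19) and from 1.11 to 0.955 (0.887 to 1.03). The place of the limit mattered: without the highest 5% of cells the ratio of Bnip3 was 1.26 and 1.08, and without the highest 20% it was 0.935 and 0.861. Other members kept a ratio away from 1 outside the highest 10%. The ratio of Bnip3l was 1.38 with all cells and 1.38 (1.33 to 1.43) without them in Experiment 1, and 1.15 and 1.16 (1.13 to 1.20) in Experiment 2. P4ha2 kept ratios of 2.22 (1.69 to 2.94) and 2.54 (2.04 to 3.18), P4ha1 of 1.26 (1.14 to 1.38) and 1.59 (1.46 to 1.74), and Ankrd37 of 9.04 (5.83 to 14.6) and 3.80 (2.52 to 5.86). Without the highest 20% of cells the ratio of Ankrd37 fell further, to 5.09 and 2.58 from 9.94 and 4.25 with all thinned cells. All cells here are those with at least 5000 UMIs, thinned and weighted alike. Over the summed UMIs of all kept cells the ratios were 6.57 and 3.21 for Ankrd37 and 1.40 and 1.25 for Bnip3.

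The ratio of Vegfa differed between the remaining cells and the highest 10%. Outside the highest 10% of cells it lay at 30.1 and 12.4 CPM in Experiment 1 and at 23.8 and 9.59 CPM in Experiment 2, ratios of 0.410 (0.362 to 0.465) and 0.403 (0.355 to 0.455). Within the highest 10% it lay at 34.8 and 64.7 CPM in Experiment 1 and at 27.6 and 35.7 CPM in Experiment 2, ratios of 1.86 (1.48 to 2.34) and 1.29 (1.02 to 1.65). Kdm3a had ratios of 0.826 (0.732 to 0.931) and 0.783 (0.701 to 0.873) outside and 1.84 (1.32 to 2.58) and 1.48 (1.08 to 2.04) within the highest 10%. In both experiments the intervals of each gene outside and within these cells did not overlap. They cover counting error only. The highest 10% began at 17 glycolysis UMIs in the non-efferocytic and at 32 and 35 in the efferocytic libraries. The comparison within them is thus between cells of unlike glycolysis level. At a common level, given next, Kdm3a was not above the non-efferocytic value in either experiment, nor was Vegfa in Experiment 2. The non-efferocytic values of Kdm3a there rest on 13 and 15 UMIs, which do not settle its direction.

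**Figure D3:**
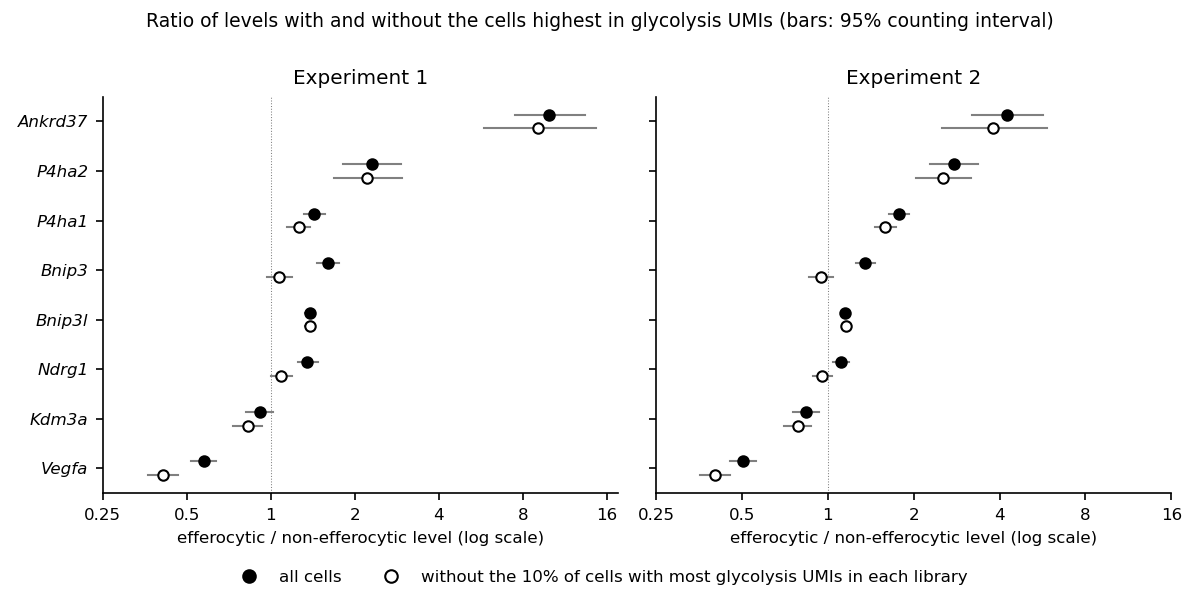
Ratio of the level in efferocytic over non-efferocytic BM macrophages (log axis, cells thinned to 5000 UMIs) in each experiment for 8 genes, over all cells (filled circles) and without the 10% of cells of each library with most glycolysis UMIs (open circles), with 95% counting intervals as bars, and Ak4 and Adm left out for few UMIs. Bnip3 moves from 1.60 to 1.07 in Experiment 1 and from 1.35 to 0.944 in Experiment 2, while Bnip3l and P4ha2 stay near their values, Ankrd37 moves from 9.94 to 9.04 and from 4.25 to 3.80, and Vegfa moves further below 1.

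Because the highest 10% of the groups differed in glycolysis level, a common limit of 30 glycolysis UMIs of 5000, chosen after the data were seen, was also applied. It was reached by 68 and 94 non-efferocytic cells (0.947% and 0.939%) and by 782 and 1328 efferocytic cells (12.7% and 16.8%). In the few non-efferocytic cells above it, several members were also higher than in the rest. Bnip3 lay at 61.8 and 57.4 CPM in them against 22.7 and 23.0 CPM in the rest, Vegfa at 55.9 and 87.2 against 30.3 and 23.6 CPM, P4ha1 at 88.2 and 63.8 against 24.9 and 20.1 CPM, and Ankrd37 at 55.9 and 27.7 against 1.04 and 1.05 CPM. Efferocytic cells above the limit held Bnip3 at 129 and 85.2 CPM, above the non-efferocytic cells there, and Ankrd37 at 84.1 and 23.2 CPM, above them in Experiment 1 and below them in Experiment 2. They held Vegfa at 57.3 and 26.4 CPM, near the non-efferocytic value in Experiment 1 and below it in Experiment 2, and P4ha1 at 80.1 and 63.1 CPM, not above the non-efferocytic values. Kdm3a lay at 29.7 and 22.0 CPM in the efferocytic against 38.2 and 31.9 CPM in the non-efferocytic cells above the limit. The non-efferocytic values rest on few UMIs, 19 and 13 for Ankrd37, 19 and 41 for Vegfa and 13 and 15 for Kdm3a. Those of Bnip3 rest on 21 and 27 UMIs and those of P4ha1 on 30 and 30. No counting intervals were made at this limit, so small differences there are not settled. Ndrg1 differed, at 23.5 and 36.2 CPM in the non-efferocytic cells above the limit (8 and 17 UMIs) and at 101 and 67.9 CPM in the efferocytic ones. P4ha2 and Ak4 turned between the experiments: P4ha2 lay at 15.9 CPM in the efferocytic against 29.4 CPM in the non-efferocytic cells above the limit in Experiment 1 and at 18.1 against 12.8 CPM in Experiment 2, and Ak4 at 15.6 against 26.5 CPM and at 6.93 against 2.13 CPM. The non-efferocytic values rest on 10 and 6 UMIs of P4ha2 and on 9 and 1 of Ak4.

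Several members were also found together in the same cells more often than the product of their shares gives. Ankrd37 with Ak4, with Bnip3 and with Vegfa showed this in both groups. In the efferocytic libraries, Ankrd37 and Ak4 were both detected in 27 and 8 cells, which is 6.94 and 6.90 times the product of their shares. Bnip3 and Ankrd37 shared 123 and 62 cells (2.61 and 2.59 times), and Ankrd37 and Vegfa shared 74 and 26 cells (2.94 and 2.82 times). In the non-efferocytic libraries, Ankrd37 and Ak4 shared 4 and 1 cells (52.2 and 41.7 times, on products under 1 cell), Bnip3 and Ankrd37 10 and 10 (1.87 and 1.52 times), and Ankrd37 and Vegfa 16 and 11 (2.67 and 1.87 times). Some pairs without Ankrd37 lay nearer 1 in the non-efferocytic libraries. Bnip3 with Ndrg1 lay at 1.14 and 1.02 times there and at 1.57 and 1.38 times in the efferocytic libraries. For Bnip3 with P4ha1 the values were 1.06 and 1.04 against 1.40 and 1.40 times, and for Vegfa with Ndrg1 0.851 and 0.961 against 1.49 and 1.31 times. This difference between the groups was not tested. In the efferocytic libraries Bnip3l stayed near 1, with 1.03 and 1.07 times for Bnip3 and 1.08 and 1.06 times for Ankrd37. Cells with UMIs of at least 5 members made up 1.92% and 0.645% of the efferocytic and 0.237% and 0.160% of the non-efferocytic cells. The cells with a UMI of Arg1, which encodes arginase and is itself raised by HIFs in macrophages, were 226 (3.38%) and 89 (1.06%) in the efferocytic libraries, and they held 22.7% and 7.38% of the Ankrd37 UMIs and 13.6% and 4.51% of the Bnip3 UMIs. Without the cells with Arg1 UMIs, 6 members were called higher and 2 lower (Vegfa, and Adm with a log2 fold change of -1.16), beside 20.2% and 19.3% of all genes.

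Free RNA was described in the barcodes of 10 to 100 UMIs, which are too small to be cells. Bnip3 lay there at 55.6 to 87.6 CPM, above its level in the cells of every library, while Bnip3l lay at 148 to 171 CPM, below it. Vegfa lay at 39.5 and 32.3 CPM in the small barcodes of Experiment 1 and at 76.9 and 61.4 CPM in those of Experiment 2, which is 1.31 to 5.42 times its level in the cells. P4ha2 stood apart by experiment, at 69.8 and 106 CPM in the barcodes of Experiment 1, which is 21.3 and 17.1 times the level in the cells, and at 4.88 and 4.24 CPM in those of Experiment 2. P4ha1 was also higher there in Experiment 1 (81.3 and 113 CPM) than in Experiment 2 (45.8 and 46.6 CPM). In both experiments the cell level of P4ha2 was higher in the efferocytic library. With 10% of the UMIs of each library subtracted in the composition of these barcodes, the log2 fold change of P4ha2 was 1.39 (edgeR adjusted p = 0.0916). The amount subtracted exceeded the P4ha2 counts of the cells in both libraries of Experiment 1, so this value rests on Experiment 2. Ankrd37 (3.34, edgeR adjusted p = 0.0494) was the 1 member still called. Ak4 had a log2 fold change of 4.64 there (edgeR adjusted p = 0.125). The subtraction left no Ak4 counts in the non-efferocytic library of Experiment 2, so this value is no estimate of the size of the change. That fit called 317 of all genes, where the fit without subtraction called 5397. The 9 other members had the same direction as before subtraction, with log2 fold changes of 0.78 for P4ha1, 0.52 for Bnip3, 0.37 for Bnip3l, -1.18 for Vegfa and -3.21 for Adm. For Adm the subtraction left no counts in the efferocytic library of Experiment 1. The directions of P4ha2, Ak4 and Adm in this fit thus depend on libraries emptied by the subtraction and add no separate support.

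**Figure D4:**
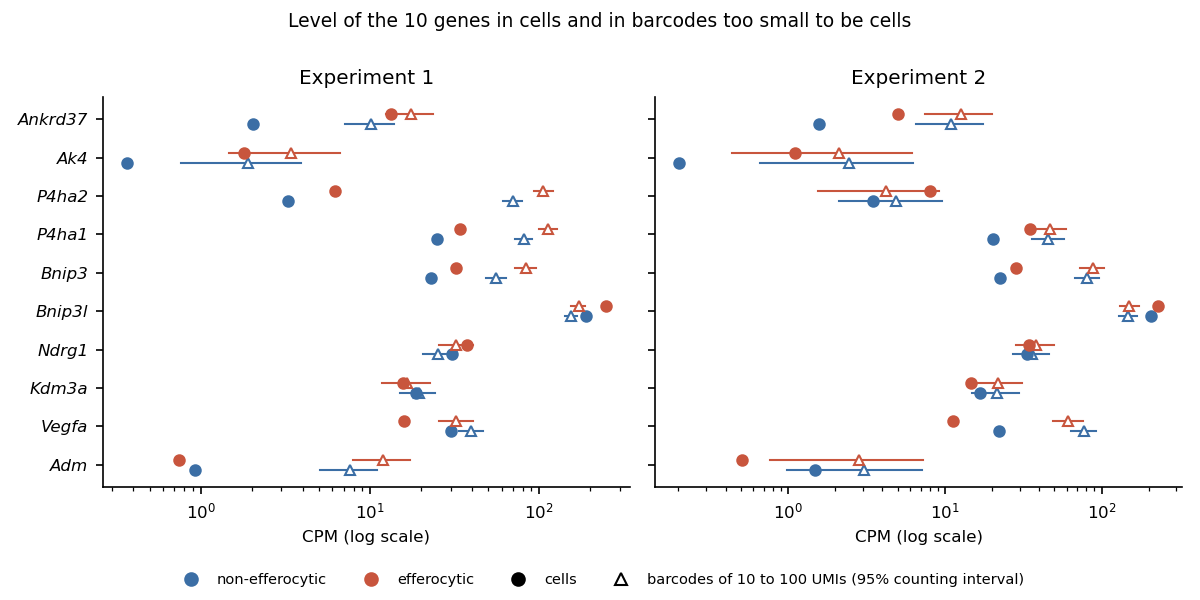
Level of the 10 genes (CPM, log axis) in the cells (filled circles) and in barcodes of 10 to 100 UMIs (open triangles, with bars for the 95% counting interval), blue for non-efferocytic and red for efferocytic libraries, in each experiment. P4ha2 in the small barcodes of Experiment 1 lies at 69.8 and 106 CPM, far above the cells, while in Experiment 2 it lies at 4.88 and 4.24 CPM.

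Of 27 other HIF targets tested outside glycolysis, 11 were higher and 9 lower, with a median log2 fold change of 0.12 and a range from -1.97 to 1.27, beside the 19.9% and 19.0% of all genes. Scaled to UMIs per cell, 16 of them were higher and 1 lower, beside 49.9% and 4.23% of all genes, with the median of all genes at 0.60. The largest rises were those of Hilpda, which protects lipid droplets from lipolysis (log2 fold change 1.27, 16.5 and 40.9 CPM in Experiment 1, 20.1 and 41.1 CPM in Experiment 2), and of Ero1l, the oxidase of the endoplasmic reticulum (0.95). The largest fall was that of Lox, which cross-links collagen (-1.97, 8.94 and 1.32 CPM in Experiment 1, 6.66 and 2.43 CPM in Experiment 2), beside the lower fibroblast markers in the same libraries, and the part of those cells was not tested for this gene. Of 20 HIF targets in glycolysis, 13 were higher and 1 lower, with a median of 0.83. Ldha, lactate dehydrogenase (1.22), and Eno1, enolase (1.17), had the largest rises, and Pfkfb4, which sets the level of fructose 2,6-bisphosphate, fell by 0.53. The study's lists picked on these libraries hold Hilpda, Higd1a, Egln3, Epas1, Pdk1, Pgk1, Pkm, Eno1, Ldha, Phb2 and Kdr among the genes of this and the next paragraphs, so their rise is not independent of that choice.

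**Figure D5:**
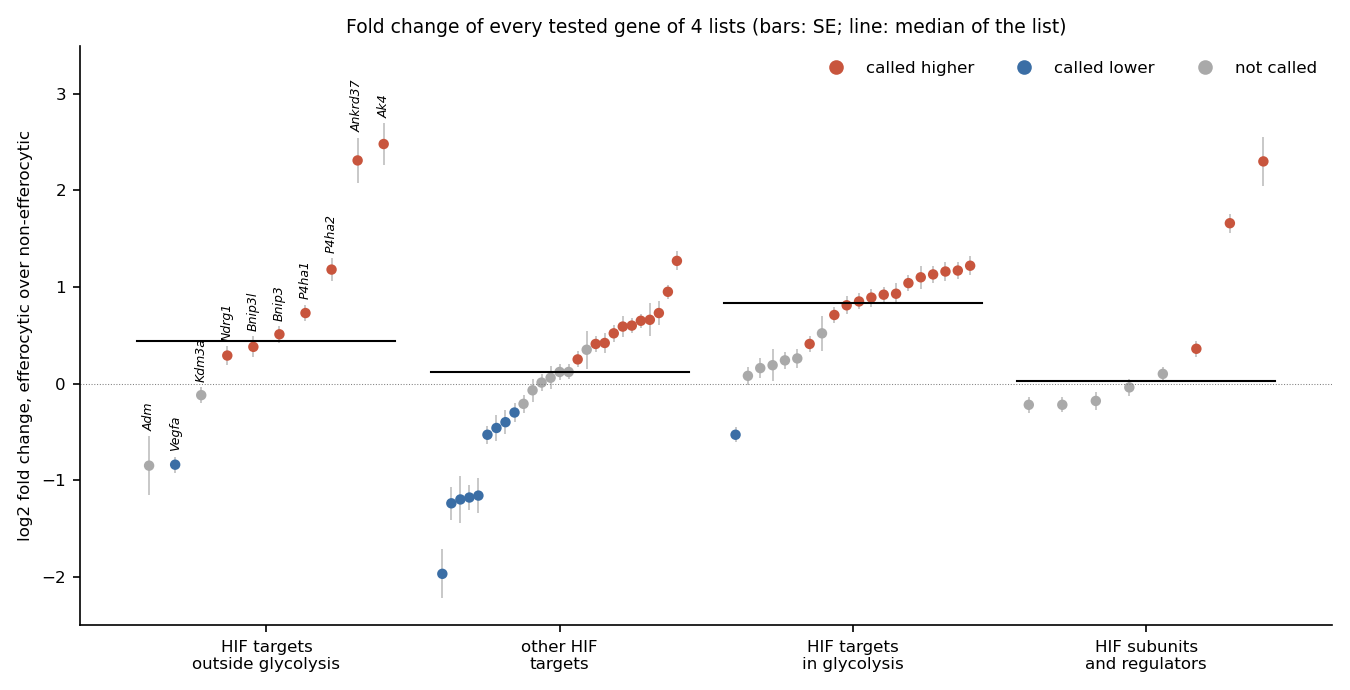
Log2 fold change, efferocytic over non-efferocytic, with its SE, of every tested gene of 4 lists, each list ordered by value with its median as a line. Among the 10 HIF targets outside glycolysis 7 are called higher (red), Vegfa is called lower (blue) and Adm and Kdm3a are not called (grey), while 13 of 20 glycolysis targets are called higher and 1 lower.

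Of the HIF subunits and regulators, Epas1, which encodes HIF-2α, lay at 16.3 and 41.2 CPM in Experiment 1 and at 14.1 and 47.9 CPM in Experiment 2, a log2 fold change of 1.66 (edgeR adjusted p = 5.08e-05). Egln3, an oxygen-sensing prolyl hydroxylase that HIFs induce, lay at 0.445 and 2.82 CPM and at 0.492 and 1.66 CPM (log2 fold change 2.30), and Egln1 rose by 0.36. The HIF-1α gene Hif1a lay at 58.5 and 42.3 CPM in Experiment 1 and at 51.6 and 45.4 CPM in Experiment 2, with a log2 fold change of -0.22 (edgeR adjusted p = 0.0648). The study's own quantitative PCR, on co-cultures that were not sorted, went the other way for both genes. It found slightly less Epas1 mRNA and more Hif1a mRNA with efferocytosis. Most of the hypoxia genes measured there rose, which the study takes as bearing out its single-cell results. For HIF-1α itself the study relies on protein, which it found increased in blots. Arnt had -0.22 (adjusted p = 0.0520), Vhl -0.18 (0.167), Hif1an, the asparaginyl hydroxylase, -0.04 (0.746) and Egln2 0.10 (0.301), all by edgeR, and Hif3a and Arnt2 had too few counts to be tested.

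The lists of relatives are small, and their counts are to be read against the 19.9% of all genes called higher and the 19.0% called lower. Of 10 other mitophagy genes, 2 were higher and 2 lower, near that background. Optn (0.52) and Phb2 (0.24) were higher and Pink1 (-0.74) and Calcoco1 (-0.40) lower. Pink1 encodes the kinase that marks damaged mitochondria, and it lay at 78.1 and 47.5 CPM in Experiment 1 and at 64.8 and 33.1 CPM in Experiment 2. Of 6 tested genes of collagen hydroxylation beside P4ha1 and P4ha2, P4hb, the beta subunit of the same enzyme (0.89), and the lysyl hydroxylase Plod1 (0.41), which also stands among the other HIF targets, were higher and P4ha3 (-1.35) lower. P4ha3 was low throughout, at 0.840 and 0.224 CPM in Experiment 1 and at 0.636 and 0.303 CPM in Experiment 2. The part of cells with fibroblast markers was not tested for it. Of 6 other adenylate kinases, 2 were higher, Ak6 with the largest rise (0.66), and Ak1 was lower (-0.86). Of 8 genes of the VEGF family and its receptors, Kdr (1.63), the main VEGF receptor, and Vegfb (0.69) were higher and none was lower, beside the fall of Vegfa. Of 3 tested receptor genes of adrenomedullin, Ramp1 was lower (-1.16), and of 5 relatives of Ndrg1 and Kdm3a, Ndrg3 (-0.37) and Kdm3b (-0.44) were lower and none was higher.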

How the data were processed

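Single-cell libraries of efferocytic and non-efferocytic BM macrophages (2 per group) were analysed from the deposited count matrices, which hold raw UMI counts per gene and barcode. The submitters' processing notes name Cell Ranger 3.0.0, Seurat 3.1 and mm10, and the file headers name Cell Ranger 3.0.0 for Experiment 1 and 3.1.0 for Experiment 2. The authors' filtered cells and clusters were not used here, and doublets were not called. The 10 genes, the gene lists and the tests were chosen with earlier results of these data known.

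Barcodes with at least 200 genes, 1000 UMIs and at most 10% mitochondrial UMIs were kept as cells, and their UMIs were summed per library. Sums were normalised by TMM, genes with low counts were filtered, and groups were compared with edgeR 4.0.16 (R 4.3.3, quasi-likelihood test, Benjamini-Hochberg adjustment, threshold 0.05) with the experiment as a block. The labels number the experiments, and libraries of the same experiment deviated together (r = 0.695 over 7097 genes). Ratios within an experiment have exact binomial 95% counting intervals, shares of cells have Clopper-Pearson intervals, and both cover counting error only. A count of 0 allows 3 counts, 0.0193 to 0.0296 CPM. Cells were thinned to 5000 UMIs for shares and for the order by glycolysis UMIs. The script was tested on simulated data. Named were all members, every HIF subunit or regulator, and of each other list the called genes with the largest rises and falls (up to 2 each) with the same sign in both experiments, of which 2 are not reported here. Marker lists beside those in the report summed, in non-efferocytic 1 and 2 and then efferocytic 1 and 2, to 41592, 35771, 33206 and 25234 CPM for macrophages, 59.2, 62.2, 21.8 and 11.1 for monocytes, 5.86, 7.47, 3.60 and 4.60 for lymphoid cells, 0.504, 0.795, 0.0480 and 0.213 for dendritic cells, 0.168, 0.217, 0.0800 and 0.0129 for mast cells and basophils, and 113, 110, 88.0 and 125 for cycling cells. Alternatives were DESeq2 1.42.0, other scalings, filters and cell rules, and each library left out. The common limit of 30 glycolysis UMIs, cells with shared barcodes left out and cells with at least 1% neutrophil UMIs left out were chosen after seeing the data. Promoters came from RefSeq (GRCm38.p6), matched by symbol for 8 of 10 genes, and Bnip3l and Ndrg1 had no entry. The RefSeq start used for Ankrd37 lies 5857 bases and that for P4ha2 829 bases from the GENCODE start. Python 3.11.15 with scipy 1.17.1, pandas 2.3.3 and matplotlib 3.10.9 was used.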

Additional observations from a re-analysis of the deposited data

Results flagged for a closer look

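The share of cells with an Adm UMI, at 5000 UMIs per cell, moved in opposite directions in the 2 experiments: the ratio of efferocytic over non-efferocytic shares was 3.15 in Experiment 1 and 0.408 in Experiment 2. This difference was not tested.

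A signal lay in barcodes outside the comparisons, those of 10 to 100 UMIs. P4ha2 reached 69.8 CPM in the non-efferocytic and 106 CPM in the efferocytic library of Experiment 1, where the cells held 3.28 and 6.19 CPM. Adm reached 7.64 and 11.9 CPM in the same barcodes (28 UMIs each), where the cells held 0.929 and 0.744 CPM. The groups of 2 libraries were too small to look for a library far from the others.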

How the results depend on the processing

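Over 16 alternatives other than leaving out a library, 126 of 156 values of the members had the same direction and stayed on the same side of the threshold, 22 no longer passed, 5 newly passed and 3 reversed. With a library left out, 18 of 40 stayed and 22 no longer passed. Members called higher went from 7 to 2 with a mean of at least 10 CPM (6 members tested) and to 1 with free RNA subtracted, with a range of 0 to 5 when leaving out a library. Members called lower went from 1 to 0 without the replicate block, with UMIs per cell and with free RNA subtracted, and to 2 (Vegfa and Adm) with library totals, without a gene filter, at 5% mitochondrial UMIs, without Arg1 cells and without neutrophil-rich cells, with a range of 0 to 1 when leaving out a library. Other HIF targets called higher went from 11 to 2 with free RNA subtracted (0 to 6 with a library left out). Those called lower went from 9 to 5 without the block and with at least 10 CPM (18 tested), to 1 with UMIs per cell and to 0 with free RNA subtracted (0 to 8 with a library left out). Adm reversed to 0.14 with the top 5% of cells by UMIs left out and to 0.64 without cells holding a UMI of the RM1 or fibroblast lists, and Kdm3a to 0.50 with UMIs per cell. Without thinning, the log2 ratio of the shares of cells with Kdm3a reversed to 0.27 in Experiment 1 and 0.59 in Experiment 2, beside the deeper efferocytic cells. Of 40 ratios of shares under other thinning, 25 moved by less than their interval and 13 by more. Causes beyond the smaller number of genes or libraries were not tested.

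Over all genes, 2761 were called higher and 2636 lower. The counts were 1285 and 1073 without the block, 1987 and 1417 with DESeq2, 1847 and 3700 with library totals (median log2 fold change of all genes -0.12), 6921 and 586 with UMIs per cell, 1473 and 1553 at 10 CPM and 192 and 125 with free RNA subtracted. Without the efferocytic library of Experiment 1 they were 1658 and 1275, and without that of Experiment 2 they were 630 and 574, and 0 and 2 (2999 at an unadjusted p under 0.05) and 0 and 0 (3494) without the non-efferocytic ones. DESeq2 was not run with a library left out, and these fits assume that the lone library varies like the other group. Depth limited Ak4 and Adm most, whose cells held 28 to 226 UMIs per library.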
